A study of Arabidopsis thaliana with 12 samples.

Results

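The chloroplast genome of Arabidopsis thaliana encodes part of the photosynthetic machinery, and 33 of its genes are described here: the genes of photosystem I, photosystem II, the cytochrome b6f complex and the ATP synthase, and rbcL, the gene of the large subunit of Rubisco. They were defined by annotation, as the genes with a chloroplast locus tag (ArthCp) whose symbol begins with psa, psb, pet or atp, or is rbcL. Earlier results of these data were known when this rule was chosen. All 33 such genes in the reference gene table have a probe set on the array that is paired with no other gene, and each has 1 among the 22810 probe sets of the array. Photosystem I has 5 of them, photosystem II 15, the cytochrome b6f complex 6, the ATP synthase 6 and Rubisco 1. All 33 passed the filter on dim probe sets, so none dropped out of the tests.

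Whole Col-0 plants were 7 days old and had grown in shaken liquid half-strength (0.5) MS medium at 21 °C under continuous light. Controls, called mock, were given DMSO, the solvent. The L-AOPP group was given 50 µM L-AOPP, an aminooxy analogue of phenylalanine studied here as an inhibitor of auxin biosynthesis, for 3 h. L-AOPP+IAA plants received the same inhibitor and, 1 h later, 1 µM of the auxin IAA, and L-AOPP+IPyA plants received IPyA, the indole-3-pyruvic acid from which IAA is made, in its place, so that the exposure to IAA or IPyA lasted 2 h. The IPyA dose is 100 µM in one label and 0.1 µM in another and is not settled here. Each group has 3 arrays, 12 in all, and replicates 1 to 3 are numbered in every group. The labels do not state whether replicates were grown separately, so the replicate error behind every p-value may be technical, and the number of arrays limits the precision.

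As background, photosystem II takes electrons from water, the cytochrome b6f complex passes them on while moving protons across the thylakoid membrane, photosystem I lifts them to ferredoxin, and the ATP synthase uses the proton gradient to make ATP, while Rubisco fixes carbon dioxide. Each of these complexes is a mosaic: core subunits are encoded in the plastid, and others in the nucleus. Plastid genes lie mostly in co-transcribed units, which a bacterial-type and a phage-type RNA polymerase transcribe and which nucleus-encoded proteins cut, splice and stabilise. Plastid messenger RNAs mostly lack a stable poly(A) tail, and the labels do not give the primer used for labelling.

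Values are linear MAS5 signals, scaled so that every array has the same trimmed mean, and describe each probe set against itself only. A change is a difference of mean log2 signals in limma, and calls were made two-sided at an adjusted p under 0.05 (Benjamini-Hochberg, over all 15922 tested probe sets). Over all tested probe sets, deviations from the group means were shared by arrays of equal replicate number (correlations of 0.501 to 0.685 over 18 array pairs, against -0.582 to 0.123 over the 36 pairs with different numbers). Among the 33 genes, the replicate number accounted for 49.0% of the variance, the group for 32.2% and neither for 18.8%. Over all tested probe sets these shares were 53.3%, 23.4% and 23.3%. Each test was therefore run without the pairing, which is the reference, and with the replicate number as a block ("paired"). Both give the same change and differ in its error. The median of all tested probe sets shifted by 0.01 between mock and L-AOPP.

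With L-AOPP, 30 of the 33 genes had a lower mean log2 signal than in mock, with a median change of -0.37 and a range from -0.97 to 0.23, and 47.1% of all tested probe sets were below 0. In the unpaired limma fit 0 of the 33 were called (11 had an unadjusted p under 0.05), and 0 of all tested probe sets were called, a background of 0% (3.32% at an unadjusted p under 0.05). In the paired limma fit 7 fell: psaC of photosystem I, psbC, psbD, psbL and psbZ of photosystem II, and petG and petL of the cytochrome b6f complex. None rose. The background in that fit was 0.421% of tested probe sets called as lower and 0.157% called as higher. The median change of the 33 genes was -0.13 in pair 1, -0.46 in pair 2 and -0.50 in pair 3. Leaving out replicate 1 gave 17 called genes in the paired fit (background 2.07%), while leaving out replicate 2 gave 0 (background 0%) and leaving out replicate 3 gave 0 (background 0.0377%), and calls over all tested probe sets went from 92 to 0 and 6 in the last cases. The changes of the 7 genes kept their sign but varied in size: that of petG was -1.05 without replicate 2 and -0.93 without replicate 3. With 1 replicate number left out, petL ran from -0.95 to -0.71 and psbD from -0.61 to -0.41. The median of the 33 genes ran from -0.45 to -0.29. The paired fit without limma's intensity trend also called 0.

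**Figure D1:**
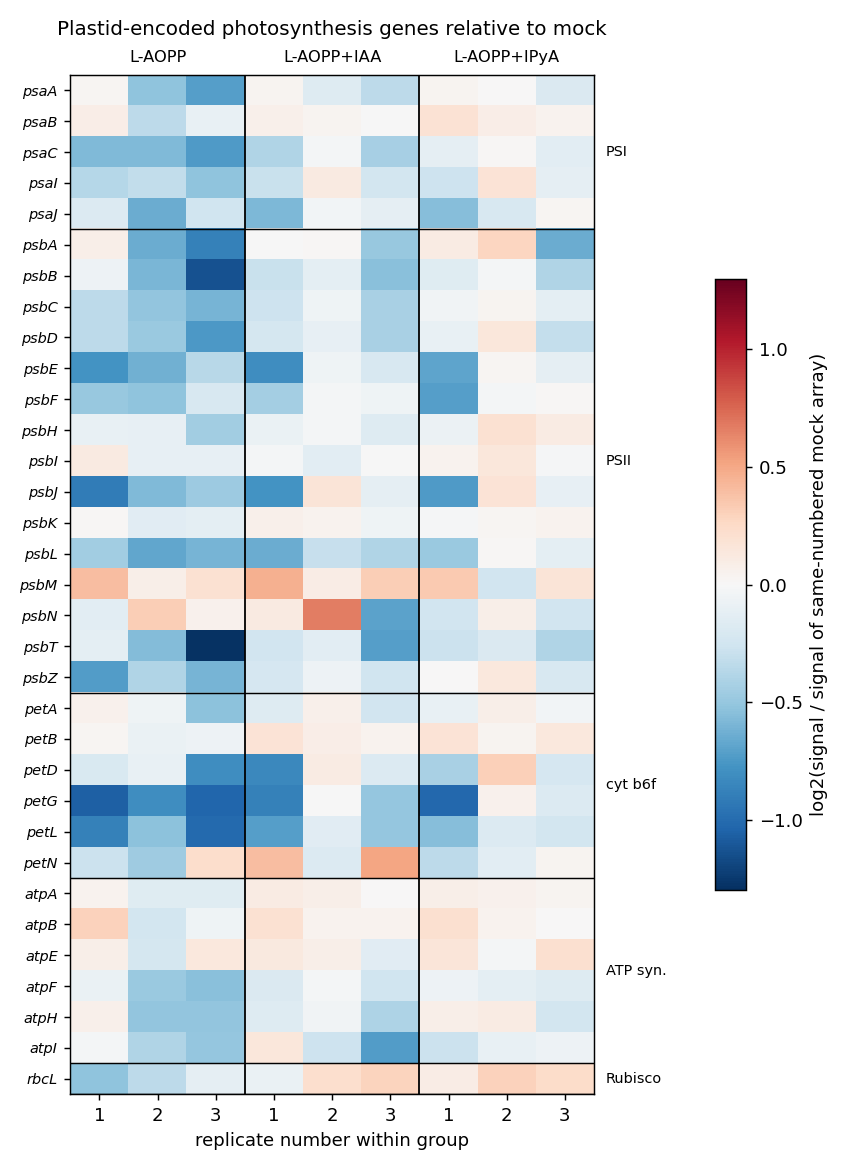
Log2 ratio of each array to the mock array with the same replicate number for the 33 genes (rows, ordered by complex) in the L-AOPP, L-AOPP+IAA and L-AOPP+IPyA groups (columns, replicates 1 to 3). Blue marks a signal below mock and red above; petG and petL are blue in all 3 L-AOPP columns, psbM is red in all 3, and several photosystem and ATP synthase genes are near 0 in L-AOPP replicate 1 and blue in replicates 2 and 3.

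For 19 of the 33 genes every L-AOPP array was below the mock array of its pair (background 15.0%), and for 1 gene, psbM, every L-AOPP array was above it (background 17.2%). The L-AOPP and mock arrays did not overlap for 13 genes that were lower with L-AOPP (background 3.77%), of which 9 belong to photosystem II, 2 to photosystem I and 2 to the cytochrome b6f complex. None of the 6 ATP synthase genes was among them. The median change was -0.40 over the photosystem I genes, -0.49 over photosystem II, -0.27 over the cytochrome b6f complex and -0.20 over the ATP synthase, beside 0.01 over all tested probe sets. Whether the complexes differ from each other was not tested.

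Photosystem I is built around the PsaA and PsaB proteins, which hold its reaction centre, and PsaC carries the iron-sulphur clusters that hand electrons to ferredoxin. The signal of psaC (locus ArthCp075) was 2455.1, 2639.9 and 2196.7 in mock replicates 1 to 3 and 1653.5, 1769 and 1319.4 with L-AOPP. Each L-AOPP array lay below every mock array. The change was -0.63 ± 0.18 (SE), or 1.55-fold lower, with an adjusted p of 1.00 in limma without pairing. In the paired fit psaC fell (adjusted p = 0.00637, SE 0.08), with changes of -0.57, -0.58 and -0.74 in the 3 pairs. Its paired adjusted p was 0.0586 without replicate 2 and 0.143 without replicate 3.

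The other photosystem I genes were not called. psaB, the brightest probe set of this complex, read 17823.7, 19031.7 and 15517.8 in mock and 18871.7, 15010.6 and 14539.5 with L-AOPP, where replicate 1 was above its mock partner and the groups overlapped. Its change was -0.12 (paired adjusted p = 0.532). psaI, a small membrane subunit, was lower in 3 of 3 pairs without overlap, with a change of -0.41 (paired adjusted p = 0.0595), and psaI was called with quantile normalization in the paired fit. psaA changed by 0.02 in pair 1, -0.52 in pair 2 and -0.71 in pair 3, and psaJ, another small subunit, by -0.18, -0.65 and -0.26.

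In photosystem II, psbA and psbD encode the reaction centre proteins that hold the cofactors, and psbC and psbB the inner antenna proteins that pass light energy to them. psbD (locus ArthCp017) read 1431.7, 1509 and 1347.1 in mock and 1130.6, 1083.1 and 800.2 with L-AOPP, and the groups did not overlap. Its change was -0.52 ± 0.18 (SE) without pairing, with an unpaired adjusted p of 1.00, and psbD fell in the paired fit (adjusted p = 0.0322). psbC (locus ArthCp018) read 4450.4, 5091.1 and 4268.3 in mock and 3511, 3561.2 and 2816 with L-AOPP, again without overlap, and psbC fell in the paired fit, with a change of -0.49 (adjusted p = 0.0190). Without replicate 2 the paired adjusted p was 0.197 for psbD and 0.165 for psbC, and without replicate 3 it was 0.288 for psbD and 0.223 for psbC.

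Among the small photosystem II subunits, psbZ and psbL were called. psbZ, whose product sits at the edge of the core, next to the light-harvesting antenna (locus ArthCp019), read 6528.8, 6953.4 and 6332.4 in mock and 3943.6, 5298 and 4179.3 with L-AOPP. All 3 L-AOPP arrays were below all 3 mock arrays, the change was -0.57 ± 0.15 (SE), or 1.49-fold, and psbZ fell in the paired fit (adjusted p = 0.00637, and 0.0586 without replicate 2 and 0.0979 without replicate 3). psbL (locus ArthCp037) read 2115.7, 2427.8 and 1908.9 in mock and 1542.4, 1516.5 and 1258.2 with L-AOPP. It did not overlap either, and its log2 change of -0.58 was a fall in the paired fit (adjusted p = 0.0432, and 0.298 without replicate 2 and 0.294 without replicate 3).

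The 11 other photosystem II genes did not pass the paired test. Without overlap between the groups were psbB (-0.60, paired adjusted p = 0.0950), psbT (-0.66, 0.0971), psbJ (-0.65, 0.0661), psbE (-0.59, 0.0646) and psbF (-0.41, 0.155), of which psbE and psbF encode the subunits of the photosystem's own cytochrome. psbA was 0.08 higher in pair 1 and -0.65 and -0.87 in pairs 2 and 3 (paired adjusted p = 0.229). psbH (-0.22), psbK (-0.09) and psbI (-0.04) had the smallest negative changes. psbN, whose product is regarded as an assembly factor and which lies on the opposite strand within the psbB unit, changed by 0.08.

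psbM, a small subunit at the interface of the photosystem II dimer, went the other way. It read 20152.9, 22061.4 and 20579.7 in mock and 26633.4, 23271.5 and 23600.6 with L-AOPP, so that every L-AOPP array was above every mock array. The change of 0.23 was not called (paired adjusted p = 0.258). Among the 33 genes psbM was the single one whose groups did not overlap in the upward direction (background 3.98%). It is also the brightest of the photosystem II probe sets.

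The 2 largest changes were those of small subunits of the cytochrome b6f complex. petG, whose product is needed in tobacco for the complex to assemble (locus ArthCp041), read 712, 870.8 and 925.8 in mock and 341.8, 497.5 and 452.2 with L-AOPP. The lowest mock array was above the highest L-AOPP array, and the change was -0.97 ± 0.35 (SE), or 1.95-fold lower, with changes of -1.06, -0.81 and -1.03 in the 3 pairs. petL, which helps to stabilise the complex (locus ArthCp040), read 1580.9, 1867.6 and 1526.8 in mock and 857.8, 1293.2 and 758.8 with L-AOPP, a change of -0.81 ± 0.24 (SE), or 1.75-fold, also without overlap. Unpaired adjusted p-values were 1.00 for petG and petL, and both fell in the paired limma fit (adjusted p = 0.0289 for petG and 0.00703 for petL). Without replicate 2 the paired adjusted p was 0.137 for petG and 0.0557 for petL, and without replicate 3 it was 0.244 for petG and 0.135 for petL.

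The larger subunits of that complex were not called. petB, which encodes cytochrome b6 and is the brightest probe set of the complex, read 18756.6, 18116 and 16160.4 in mock and 19110.2, 17057.6 and 15412.1 with L-AOPP, a change of -0.04 with overlapping groups. petA, which encodes cytochrome f, changed by -0.18 and petD, which encodes subunit IV, by -0.37. petD and petN, another small subunit (-0.17), were dim, with mean signals over the 12 arrays of 115.9 and 140.7.

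In the ATP synthase, atpA and atpB encode the alpha and beta subunits of the catalytic head, atpE its epsilon subunit, and atpF, atpH and atpI the membrane part. None was called. The head subunits had changes near 0: atpB read 21331.2, 23747.3 and 21651.3 in mock and 26247.5, 20118.1 and 20822.9 with L-AOPP, a change of 0.00, and atpE (-0.00) and atpA (-0.09) were close to it. The membrane subunits atpF (-0.37, paired adjusted p = 0.0938), atpH (-0.32) and atpI (-0.31) had larger negative changes, and in pairs 2 and 3 these lay between -0.39 and -0.54. In pair 1 they were -0.08, 0.07 and -0.03. The head subunits also have the brighter probe sets, all with a mean signal over 10000. Those of atpF, atpH and atpI have mean signals of 4420.6, 2865.4 and 179. Whether the difference goes with the part of the enzyme or with the signal level was not tested.

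rbcL (locus ArthCp030) read 1373.6, 1023.1 and 949.2 in mock and 957.2, 808.4 and 872.6 with L-AOPP. Each L-AOPP array was below its own mock partner, but L-AOPP replicate 1 was above mock replicate 3, so the groups overlapped. The change was -0.33 ± 0.15 (SE) and was not called in the paired limma fit (adjusted p = 0.119). Its size rested on single arrays: leaving out 1 array at a time gave changes from -0.43 to -0.17. Called genes moved as well, from -1.08 to -0.81 for petG, -1.03 to -0.65 for petL and -0.62 to -0.37 for psbD.

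**Figure D2:**
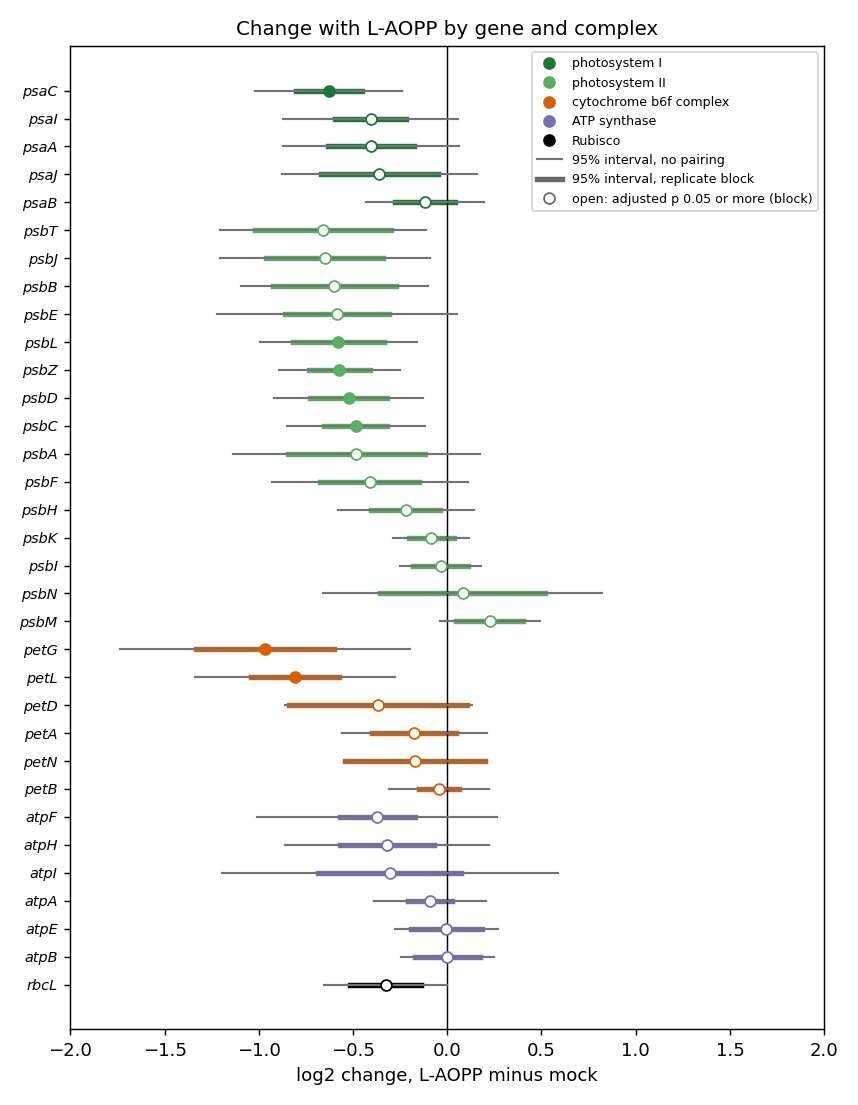
Log2 change of each of the 33 genes between L-AOPP and mock (x axis), grouped by complex and ordered by size, with the 95% interval of the unpaired fit as a thin grey line and that of the paired fit as a thick coloured line. Filled points are the 7 genes called in the paired fit; petG at -0.97 and petL at -0.81 lie farthest left, and the atpB and atpE points sit at 0.

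Genes that share a co-transcribed unit were set side by side, with the units taken from textbook maps. The 3 genes of the petL unit (petL, petG and psaJ) had median changes of -0.88, -0.65 and -1.01 in pairs 1 to 3, the 4 genes of the psbE unit (psbE, psbF, psbL and psbJ) -0.64, -0.60 and -0.42, and the 3 genes of the psbD unit (psbD, psbC and psbZ) -0.34, -0.48 and -0.60. These 3 units hold 6 of the 7 called genes. The psbB unit (psbB, psbT, psbH, petB and petD) had medians of -0.09, -0.11 and -0.80 and the petA unit (psaI and petA) -0.16, -0.19 and -0.53, so that these 5 units had a negative median in every pair. The psaA unit (psaA and psaB) had 0.05, -0.43 and -0.40, and the psbK unit (psbK and psbI) 0.07, -0.13 and -0.12. The atpI unit (atpI, atpH, atpF and atpA) had 0.01, -0.44 and -0.51, and the atpB unit (atpB and atpE) 0.19, -0.23 and 0.04. Within a unit the genes were not alike: petB changed by -0.04 and psbB by -0.60, and psaJ by -0.36 beside -0.97 for petG.

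**Figure D3:**
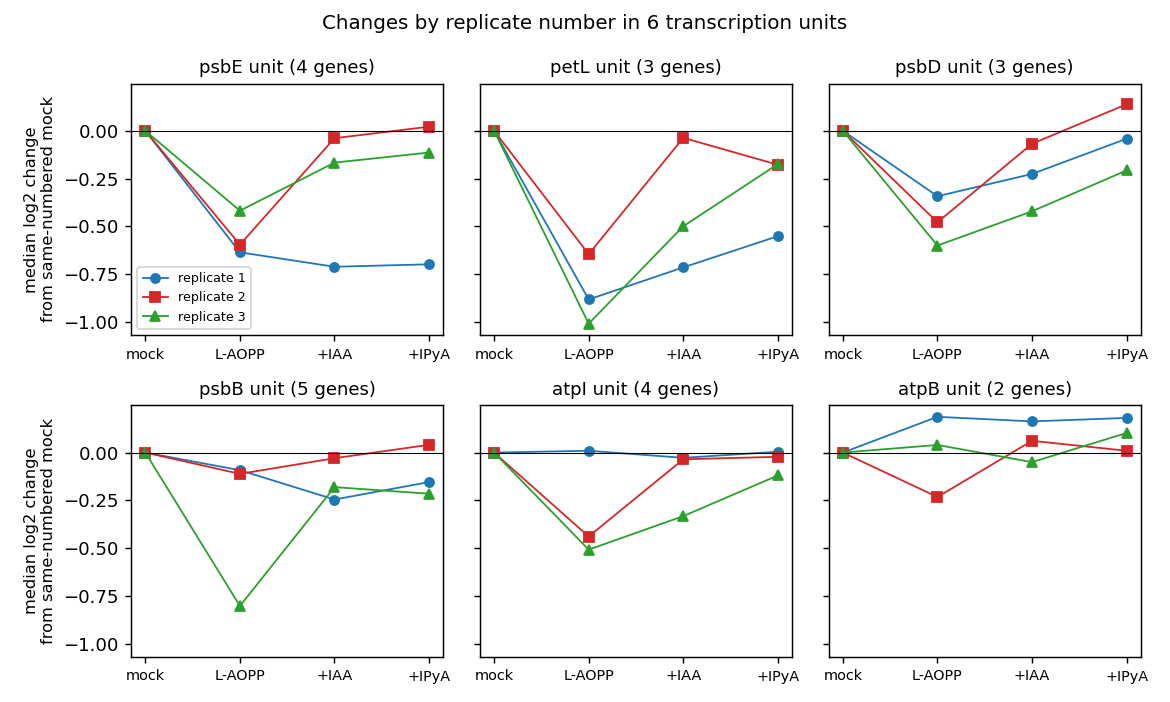
Median log2 change from the mock array with the same replicate number over the genes of 6 of the 9 co-transcribed units (y axis) in each group (x axis), 1 line for each replicate number. The petL, psbE, psbD and psbB units are below 0 with L-AOPP in all 3 pairs, and the psbB unit is at -0.80 in pair 3 and at -0.09 and -0.11 in the others.

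The changes were also set against the signal of the probe sets, which does not compare the levels of different genes. Over all 33 genes, change and log2 mean signal had a Pearson r of 0.349 and a Spearman rho of 0.512. Without the 5 genes under a signal of 1000, which include petG at -0.97 and psbN at 0.08, these were 0.815 and 0.804 over 28 genes. This is a description across genes measured on the same arrays, which are not independent points. The 7 genes with a mean signal over 10000 (atpA, atpB, atpE, petB, psaB, psbK and psbM) had a median change of -0.04, between -0.12 and 0.23. The 21 genes between 1000 and 10000 had a median of -0.48, between -0.81 and -0.04, and the 5 under 1000 a median of -0.31. Of all 184 tested probe sets over 10000, the central 90% had changes between -0.0960 and 0.165, against -0.302 to 0.230 for the 3251 between 1000 and 10000. Whether bright probe sets report changes as fully as dimmer ones was not tested. Gene length separated the genes less: the 14 genes under 200 bases had a median of -0.41 and the 19 longer ones -0.33.

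**Figure D4:**
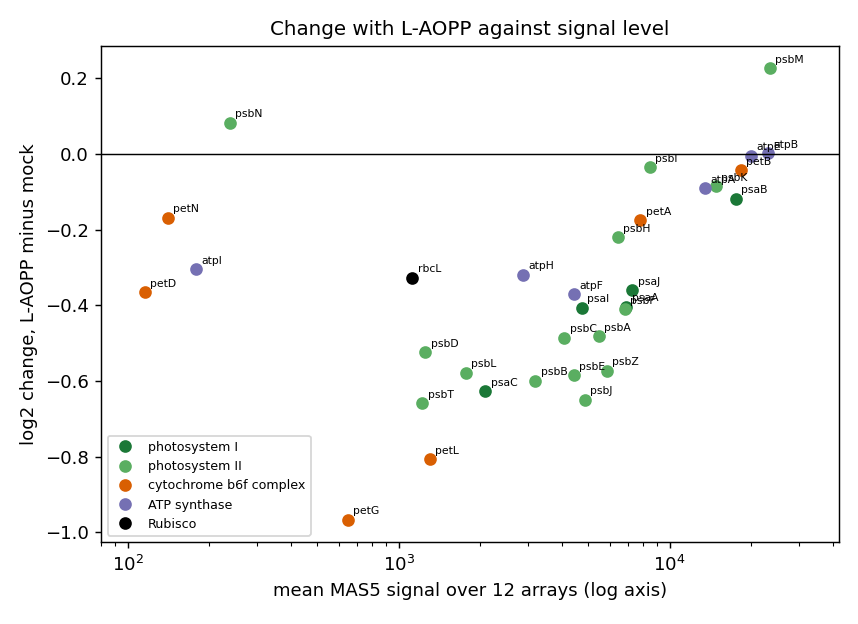
Log2 change between L-AOPP and mock (y axis) against mean MAS5 signal over 12 arrays (x axis, log scale) for the 33 genes, coloured by complex. Above a signal of 1000 the changes run from -0.81 for petL to values near 0 at the bright end, with psbM at 0.23 in the upper right corner.

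IAA was supplied to follow the effect of the auxin in the presence of the inhibitor. This comparison, the one with IPyA and that of L-AOPP with mock share the 3 L-AOPP arrays, so their values are not independent of each other. With IAA, 31 of the 33 genes had a higher mean log2 signal than with L-AOPP alone, with a median change of 0.21 (0.05, 0.38 and 0.28 in pairs 1 to 3) beside -0.01 over all tested probe sets. That median ranged from 0.058 to 0.28 when 1 array was left out, the lowest value coming without replicate 3 of L-AOPP, while omitting replicate 2 of L-AOPP+IAA gave 0.075. Without pairing limma called 0 of the 33 (3 with an unadjusted p under 0.05, background 5.90%), beside a background of 0.396% called in either direction. In the paired fit rbcL, psbZ and psaC rose and none fell, beside backgrounds of 2.55% called as higher and 1.16% as lower. Without replicate 1 the paired fit called 8 (background 3.94%), without replicate 2 it called 0 (background 0.747%), without replicate 3 it called 0 (background 1.21%), and without the intensity trend it called rbcL alone.

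rbcL had the largest of the called rises. It read 1291, 1188 and 1158 with L-AOPP+IAA against 957.2, 808.4 and 872.6 with L-AOPP, and it was the single one of the 33 whose groups did not overlap (background of higher values without overlap 5.51%). The change was 0.47 ± 0.15 (SE), or 1.38-fold, with an adjusted p of 0.436 without pairing and 0.0103 in the paired limma fit, and of 0.236 and 0.0624 in the paired fit without replicate 2 and without replicate 3. psbZ read 5601.1, 6634.8 and 5295.4 with IAA, and its lowest value was just under the highest L-AOPP array, 5298. It rose by 0.39 in the paired fit (adjusted p = 0.0111, and 0.0536, 0.0999 and 0.0720 without replicates 1, 2 and 3). psaC read 1874.6, 2593.4 and 1632.8 with IAA, overlapping the L-AOPP arrays, and rose by 0.35 in the paired fit (adjusted p = 0.0334, and 0.416 and 0.174 without replicates 2 and 3). With 1 array left out the psaC change ran from 0.16 to 0.49, the lowest coming without replicate 2 of L-AOPP+IAA, while omitting replicate 3 of L-AOPP gave 0.22.

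The other genes that had been called lower with L-AOPP did not pass this test. petG read 387.8, 866.4 and 655 with IAA, with changes of 0.18, 0.80 and 0.53 in the 3 pairs (paired adjusted p = 0.140), and petL read 963.6, 1686.6 and 1077.4 (0.35, paired adjusted p = 0.104). In both, replicate 1 stayed close to its L-AOPP value and replicate 2 was near its mock value. psbC read 3702.8, 4907.2 and 3188.2 (0.24), psbD read 1224.4, 1396.7 and 1004.6 (0.27) and psbL read 1356.7, 1969.1 and 1452.7 (0.13), and L-AOPP and L-AOPP+IAA arrays overlapped for all 3. By complex the medians were 0.25 for photosystem I, 0.24 for photosystem II, 0.25 for the cytochrome b6f complex and 0.10 for the ATP synthase. Signals were higher in 3 of 3 pairs for 17 of the 33 (background 17.4%).

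IPyA gave changes in the same range. Of the 33 genes 31 had a higher mean log2 signal with L-AOPP+IPyA than with L-AOPP, with a median of 0.30 (0.01, 0.43 and 0.37 in pairs 1 to 3) beside -0.00 over all tested probe sets. Leaving out 1 array gave medians from 0.13 to 0.41, the lowest coming without replicate 2 of L-AOPP+IPyA, while omitting replicate 3 of L-AOPP gave 0.14. limma called 0 of the 33 without pairing (5 with an unadjusted p under 0.05), and 0% of all tested probe sets (2.30% at an unadjusted p under 0.05). In the paired fit psbZ, psaC, rbcL and psbC rose and none fell, beside backgrounds of 0.157% called as higher and 0.0188% as lower. Without replicate 1 the paired fit called 8 (background 0.471%), without replicate 2 it called 0 (background 0%), without replicate 3 it called 0 (background 0.0188%), and without the intensity trend 0.

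The L-AOPP and L-AOPP+IPyA arrays of these 4 genes did not overlap, and they were the only ones of the 33 with higher values for which this held (background 3.01%). psbZ read 6564.4, 7655.8 and 5484.7 with IPyA and rose by 0.55 (paired adjusted p = 0.0103, and 0.266 and 0.0723 without replicates 2 and 3). psaC read 2269.7, 2666.2 and 1994.6 and rose by 0.55 (paired adjusted p = 0.0227, and 0.299 and 0.224). rbcL read 1473.5, 1255.3 and 1121.3 and rose by 0.54 (paired adjusted p = 0.0324, and 0.0580, 0.692 and 0.0913 without replicates 1, 2 and 3). psbC read 4324.5, 5234.3 and 3915.8 and rose by 0.44 (paired adjusted p = 0.0467, and 0.637 and 0.300 without replicates 2 and 3), and with quantile normalization its paired adjusted p was 0.0520.

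petG read 351.1, 902.6 and 820.5 with IPyA. Replicate 1 was at its L-AOPP level (a change of 0.04 in pair 1) and the other two near mock (0.86 in pairs 2 and 3), and the change of 0.59 was not called (paired adjusted p = 0.254). petL read 1078.9, 1651.3 and 1292.5 (0.48, paired adjusted p = 0.145), psbD read 1334.7, 1676.4 and 1088 (0.44, 0.132) and psbL read 1510.1, 2453.4 and 1748.2 (0.38, 0.257). Signals were higher than with L-AOPP in 3 of 3 pairs for 19 genes (background 15.6%) and lower in 3 of 3 pairs for psbM and psbN (background 16.6%). psbM, above mock in every L-AOPP array, read 25487.5, 18615.7 and 23107 with IPyA, a change of -0.14 (paired adjusted p = 0.627). The ATP synthase had the smallest median of the complexes, 0.15, beside 0.34 for photosystem I, 0.37 for photosystem II and 0.21 for the cytochrome b6f complex.

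**Figure D5:**
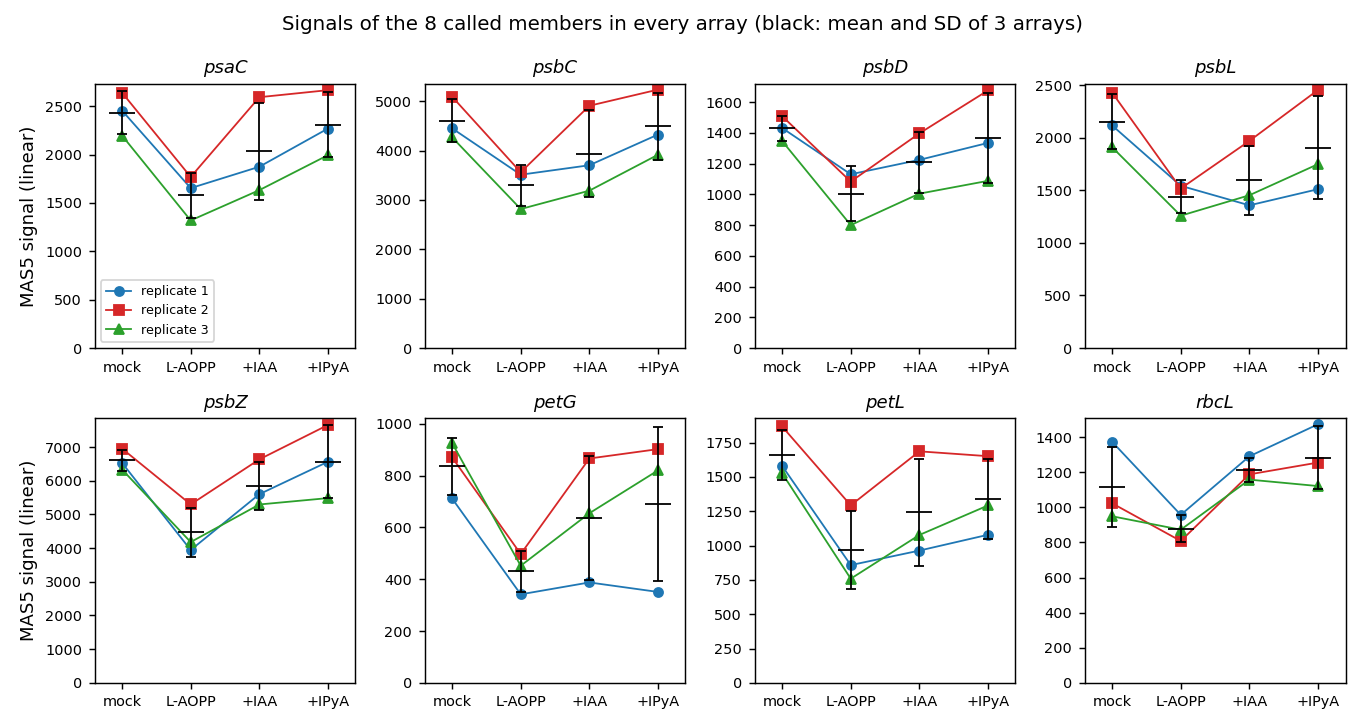
MAS5 signal (y axis, linear, from 0) of the 8 genes called in the paired fit of any of the 3 comparisons above, in every array of the 4 groups (x axis), with lines joining arrays of the same replicate number and black bars for the mean and SD of 3 arrays. In all 8 panels the L-AOPP mean is the lowest of the 4 groups. The choice of genes largely fixed this, since all 3 comparisons share the L-AOPP arrays. In petG the replicate 1 line stays low after IAA and IPyA while those of replicates 2 and 3 go back up.

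Against mock, neither addition left a called difference. With L-AOPP+IAA the median change from mock was -0.16 (23 of 33 below 0), and limma called 0 of the 33 without pairing (2 with an unadjusted p under 0.05, background 4.24%) and 0 in the paired fit (10 with an unadjusted p under 0.05, beside 1918 of all 15922 tested probe sets), beside backgrounds of 0.446% and 1.70% called. petL was nearest to a call, at -0.45 (paired adjusted p = 0.0570), and psbM read 27815.9, 23661.7 and 25644, above every mock array (background 4.03%), a change of 0.29 (paired adjusted p = 0.123). psbM was called in the paired fit without replicate 2. The median depended on 1 array, since it was -0.35 without L-AOPP+IAA replicate 2. With L-AOPP+IPyA the median change from mock was -0.08 (23 of 33 below 0), and limma called 0 of the 33 without pairing (0 with an unadjusted p under 0.05, background 0.942%) and 0 in the paired fit (4 with an unadjusted p under 0.05, background 5.54%), beside 0% of all tested probe sets in both. That median was -0.23 without L-AOPP+IPyA replicate 2 and 0.02 without mock replicate 2, without L-AOPP+IPyA replicate 1 or without L-AOPP+IPyA replicate 3. A missed threshold does not show that levels were back at mock.

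In some units replicate 1 lay lowest after the additions. In the psbE unit the median change from mock was -0.71, -0.04 and -0.17 in pairs 1 to 3 with IAA and -0.70, 0.02 and -0.11 with IPyA, so that replicate 1 was as low as with L-AOPP alone (-0.64). The petL unit had -0.71, -0.04 and -0.50 with IAA and -0.55, -0.18 and -0.17 with IPyA. In the psbD unit the spread was narrower, -0.23, -0.07 and -0.42 with IAA and -0.04, 0.14 and -0.21 with IPyA. What sets replicate 1 apart is not given by the labels.

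None of the 33 genes passed the test of IPyA against IAA. The median difference, IPyA minus IAA, was 0.08 with 26 genes above 0, and limma called 0 of the 33 without pairing (1 with an unadjusted p under 0.05, background 4.40%) and 0 in the paired fit (6 with an unadjusted p under 0.05, background 10.4%), while 0.377% and 1.94% of all tested probe sets were called. petN had the largest difference, -0.39, with a paired 95% interval from -0.76 to -0.02, and the interval of rbcL ran from -0.11 to 0.26. The median ranged from -0.04 to 0.26 when 1 array was left out, the lowest without L-AOPP+IPyA replicate 2 and the highest without L-AOPP+IAA replicate 2.

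Other organelle genes mostly had negative changes with L-AOPP. The 9 tested plastid genes of the NDH complex had a median change of -0.26 with 1 called in the paired fit, the 25 other tested plastid genes -0.42 with all 25 below 0 and 1 called, and 11 genes with symbols of mitochondrial complexes (nad, cox and ccb) -0.20 with 1 called. All 3 of these calls were lower, beside the background of 0.421% called as lower in that fit, and 47.1% of all tested probe sets were below 0. After the additions these sets had positive median changes against L-AOPP, like the 33 genes. With IAA the medians were 0.14 for the NDH genes, 0.16 for the other plastid genes and 0.20 for the mitochondrial genes, beside 0.21 for the 33. With IPyA they were 0.21, 0.25 and 0.23 in that order, beside 0.30 for the 33. Differences between these sets were not tested.

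No listed nucleus-encoded photosynthesis gene that could be tested was called. Of 61 listed nuclear photosynthesis genes 12 have a probe set that names them. Among these are PSAE-1 of photosystem I, PETM of the cytochrome b6f complex and ATPC1 of the ATP synthase. The 12 also include the antenna genes LHCB4.1 and LHCB4.2, and RCA and PRK, so not all encode subunits of the complexes above. The median change of the 12 genes with L-AOPP was 0.06 with 2 of 12 below 0 (background 47.1%). In either fit 0 of 12 were called in any of the 6 comparisons. Paired backgrounds were 0.421% called as lower and 0.157% as higher with L-AOPP. For L-AOPP+IAA against L-AOPP they were 1.16% and 2.55%. At such shares a count of 0 among 12 genes says little. CRP1, a nuclear factor for the processing and translation of petD and petA messages in maize, read 670.3, 989.8 and 865.2 in mock and 772.8, 811.9 and 766.9 with L-AOPP and was not called (-0.08). CRP1 is the 1 of 11 listed RNA maturation genes with a named probe set, and RPOTmp, a phage-type polymerase, is the 1 of 21 listed transcription genes, at 29.3 to 37.6 in mock and 27.1 to 43.2 with L-AOPP, too dim to be tested.

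The plants were whole, and both green-tissue and root markers were present. Of 23 listed green markers 3 were matched to a probe set of their own (LHCB4.1, LHCB4.2 and RCA). Of 15 root markers 3 were (PYK10, EXPA7 and EXPA18). That the others were not matched does not show that the array lacks them. Summed signals of the green markers were 47467.5 to 55809.3 in mock, 48219.3 to 60993.3 with L-AOPP, 47749.9 to 61414.8 with IAA and 49100.7 to 63716.3 with IPyA. Those of the root markers were 17409.8 to 25564.9, 18661.3 to 24693.8, 19285.6 to 24808 and 19855.4 to 24394.6 in the same order, and none of these genes is at 0. Most of the root sum is PYK10, and the root hair expansins EXPA7 and EXPA18 are given separately. EXPA7 read 1928.5, 258.7 and 320.2 in mock and 1589.6, 582 and 774.8 with L-AOPP, with replicate 1 highest in both groups. Its changes were 0.72 with L-AOPP (paired adjusted p = 0.178; -0.28, 1.17 and 1.27 in the 3 pairs), and -0.42 with IAA (0.404) and -0.62 with IPyA (0.361) against L-AOPP. EXPA18 read 1207.8, 288.4 and 341.6 in mock, 1144.8, 549 and 764.5 with L-AOPP, 1062.2, 272.4 and 394.9 with IAA and 964.6, 333.2 and 431.9 with IPyA. Its changes were 0.67 with L-AOPP (paired adjusted p = 0.115; -0.08, 0.93 and 1.16 in the 3 pairs), and -0.69 with IAA (0.0507) and -0.60 with IPyA (0.267) against L-AOPP. None of these was called, and in all 3 comparisons the mean change of both expansins was opposite in sign to that of most of the 33 genes. In pair 1 of L-AOPP against mock both expansins were lower, as was the median of the 33 genes. PYK10 changed by 0.03 with L-AOPP, and by 0.07 with IAA and 0.08 with IPyA against L-AOPP, and was not called. With both additions its sign was that of most of the 33 genes. The GAPDH 3'/5' ratio, a measure of RNA and labelling quality, was 1.32 ± 0.0848 in mock, 1.25 ± 0.0998 with L-AOPP, 1.28 ± 0.123 with IAA and 1.36 ± 0.209 with IPyA (SD, n = 3). The same ratio for actin was 11.7 ± 1.51, 11.4 ± 3.13, 11.6 ± 2.57 and 12.9 ± 1.36 in that order, and for ubiquitin 2.17 ± 0.102, 2.18 ± 0.132, 2.26 ± 0.198 and 2.31 ± 0.348 (SD, n = 3). The part of RNA quality and of tissue makeup in the changes was not tested. The green markers LHCB4.1, LHCB4.2 and RCA changed by 0.05, 0.09 and 0.04 with L-AOPP. Against L-AOPP they changed by 0.07, 0.02 and 0.02 with IAA and by 0.07, 0.01 and 0.03 with IPyA. No green marker was called. In these whole plants a smaller share of green cells was not tested apart from less plastid RNA per cell.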

How the data were processed

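Total RNA of 12 samples was labelled as biotinylated cRNA and hybridised in 1 colour, per the labels. The deposited file holds 1 linear signal intensity for each probe set and array, which MAS5 computed according to the submitters' processing notes. Its version and scaling are not given in the sources, but the mean after trimming 2% at each end is 500 on every array. Groups come from the sample titles. Of 22746 probe sets without the 64 controls, 6824 at or below the 30th percentile of mean log2 signal (47.4) were left out. Log2 signals (floor 0.05) of all 12 arrays were fitted with limma 3.58.1 in R 4.3.3 (eBayes with intensity trend). A run on simulated data with independent noise checked only that the fit returned the mean size of the changes put in. Alternatives were the replicate block (all 12 arrays correlated best with one of their own number), other normalizations, filters, an added 16, no trend, and leaving out arrays. The genes, gene lists and rule for named genes (any of the 33, other genes only if called or listed as plastid RNA factors, plus markers) were chosen with earlier results of these data known. Gene names come from the platform annotation and the RefSeq gene table.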

Additional observations from a re-analysis of the deposited data

How the results depend on the processing

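Without pairing, all alternatives called 0 of the 33 genes in all 6 comparisons. With the replicate block, the pairing gave 7 called genes for L-AOPP against mock, 3 for L-AOPP+IAA against L-AOPP and 4 for L-AOPP+IPyA against L-AOPP. The paired counts were 0 to 17, 0 to 8 and 0 to 8 when 1 replicate number was left out, 8, 3 and 3 with quantile normalization, 7, 3 and 4 with median centring, and 0, 1 and 0 without the intensity trend (these last 3 settings were chosen after seeing the data). The block changed no other call among all replicates, and without replicate 2 it called 1 gene, psbM, for L-AOPP+IAA against mock. The cause of these differences was not tested, but leaving out a number also leaves fewer arrays. Median changes ran from -0.46 to -0.26 for L-AOPP against mock, from 0.058 to 0.28 for L-AOPP+IAA against L-AOPP, from 0.13 to 0.41 for L-AOPP+IPyA against L-AOPP, from -0.35 to -0.052 for L-AOPP+IAA against mock, from -0.23 to 0.025 for L-AOPP+IPyA against mock and from -0.037 to 0.26 for L-AOPP+IPyA against L-AOPP+IAA with 1 array left out, and the last was 0.039 with the block without replicate 3. No called value changed sign. Averaging the probe sets of a gene was not run, since each gene has 1. Detection calls were not used here, and no replicate group exceeds 3 arrays, so single outlying arrays were not tested for.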
